A study of Mus musculus with 16 samples.

Results

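Mitochondria fuse, divide and are removed by autophagy (mitophagy), and 9 genes of this machinery were followed in mouse p53-/-; Myc hepatoblasts, liver progenitor-derived cells used as a model of hepatocellular carcinoma, exposed to sorafenib or to its vehicle. The genes were chosen by name: Mfn1, Mfn2, Dnm1l, Fis1, Mff, Pink1, Bnip3l, Fundc1 and Bcl2l13. The list held 10 names, of which 9 matched a row among the 40840 genes counted; the entry for Phb2 was marked as none, and Phb2 is given below among the other genes of the pathway. mRNA was sequenced in 16 libraries, 4 replicates in each of 4 groups: DMSO for 48 hours, sorafenib for 48 hours, DMSO for 7 days and sorafenib for 7 days. Sorafenib is a multikinase inhibitor used against liver cancer, and DMSO is the solvent it is dissolved in. All 4 groups carry the p53 loss and the Myc overexpression, all come from 1 cell line, and no cells without these alterations were compared. Nothing in the labels says that replicates were separate cultures, so the p-values measure the spread between these samples, which may be technical.

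Outer membranes are fused by the mitofusins Mfn1 and Mfn2, large GTPases that tether neighbouring mitochondria. Division is driven by Drp1, the dynamin-related GTPase encoded by Dnm1l, which is recruited from the cytosol by outer membrane adaptors such as Mff, while Fis1 is a small outer membrane protein linked to division and to mitophagy. Damaged mitochondria are marked by the kinase PINK1, which accumulates on the outer membrane and starts their tagging with ubiquitin, or are recognized by receptors that sit in the outer membrane and bind LC3 directly, among them the products of Bnip3l (NIX), Fundc1 and Bcl2l13.

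The genes lie apart in the genome (GRCm39, GENCODE vM39): Mfn1 at chr3:32583599-32645888 (+), Mfn2 at chr4:147955508-147989585 (-), Dnm1l at chr16:16128677-16176904 (-), Fis1 at chr5:136982101-136995089 (+), Mff at chr1:82702582-82730684 (+), Pink1 at chr4:138039346-138053618 (-), Bnip3l at chr14:67222678-67246356 (-), Fundc1 at chrX:17386204-17438572 (-) and Bcl2l13 at chr6:120813144-120891322 (+). All 9 are protein coding, and the counts are of reads on their exons. Exons of Mfn1, Mfn2, Dnm1l, Pink1 and Bcl2l13 overlap exons of protein-coding genes on the opposite strand, namely Gnb4, Fv1, Yars2, Ddost and Bid. The strand setting of the counting is not given in the sources used here, so part of the reads of these 5 genes could belong to the neighbour. Exons of Fis1, Mff and Fundc1 overlap exons of long noncoding RNAs on the opposite strand, to which the same limit applies. Bnip3l has a named pseudogene, Bnip3l-ps, which held between 4.21 and 25.9 normalized counts per library.

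Promoters were chosen by the size of the response to sorafenib among genes with a window, which gave Mfn2, Dnm1l, Fis1 and Fundc1. Those of Mfn2 and Fundc1 were left out for the reason given below. The promoters shown are of the division genes Fis1 and Dnm1l, which changed in opposite directions at both times. For Bnip3l the table of windows had no entry. The stretches run 5′ to 3′ on the gene's strand from 250 to 31 bases before the RefSeq start (build GRCm38.p6), at chr5:136953025-136953244 (+) for Fis1 and chr16:16359062-16359281 (-) for Dnm1l. No base is in capitals, since capitals would mark a match to a searched motif and these stretches held none.
Fis1: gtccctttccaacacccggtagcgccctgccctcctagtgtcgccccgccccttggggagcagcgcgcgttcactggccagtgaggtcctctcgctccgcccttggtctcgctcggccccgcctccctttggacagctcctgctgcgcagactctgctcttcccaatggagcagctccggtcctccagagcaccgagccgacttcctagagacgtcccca
Dnm1l: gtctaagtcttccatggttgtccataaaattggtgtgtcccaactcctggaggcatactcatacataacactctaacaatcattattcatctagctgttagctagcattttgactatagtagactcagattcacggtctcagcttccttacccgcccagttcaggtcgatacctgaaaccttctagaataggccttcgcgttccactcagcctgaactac
RefSeq windows of 300 bases, from 250 before to 50 after the start, were found for 8 of the 9 genes and searched on both strands for ACGTG (the core bound by HIF), TGATGNAAN (the element bound by ATF4), CACGTG (the E-box) and the NRF1 motif; the E-box cannot occur without the HIF core, which it contains. Of the 32851 windows of the same length in the table, 19.6% held the first, 3.95% the second, 7.15% the third and 4.6% the fourth. Among the 8 members, the first 3 motifs were in 0 windows and the NRF1 motif was in 1, that of Pink1, beginning 10 bases before the start. The windows of Mfn2 and Fundc1 lie most in longer GENCODE transcripts of the same genes (236 and 105 of the 250 bases before the RefSeq start, against at most 47 for the other 6), so they are not promoter alone and are not printed. The window of Fis1 was 65% G and C and that of Dnm1l 53%, beside a median of 52.67% over all windows.

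Total counts per library ran from 16586254 to 30828427. Values below are normalized counts (counts scaled to a common library size by TMM), as mean ± SD over 4 libraries, and log2 fold changes ± SE with the Benjamini-Hochberg FDR of edgeR's quasi-likelihood test over 20444 genes, a gene being called at an FDR under 0.05. The sorafenib 48 hours library of replicate 2 stood apart: from Obi1 (start 104714969 on chromosome 14) onward, including the chromosomes numbered after it and X, its counts relative to the other 3 libraries of its group were at a ratio of 0.605 to those before that place, and this stretch held 14.3% of its counts against 20.7% to 21.5% in the other 15 libraries. Dnm1l and Fundc1 lie in the stretch, so results of theirs that rest on this library are also given without it. Bnip3l and the remaining members lie before it. Their normalized counts in this library were above the mean of the other 3, at ratios from 1.01 (Pink1) to 1.20 (Mfn2). Without it their log2 fold changes at 48 hours kept their direction, with Fis1 at -0.78, Bcl2l13 at -0.17 and Bnip3l at -1.66. Counts on Trp53 were between 1268 and 4799 in every library, and those on Myc between 4226 and 17797; which exons of Trp53 were deleted is not given in the sources used here, so its row does not check the genotype. Of the 10 hepatoblast markers, Hnf4a had 0 counts in all 16 libraries, Alb at most 1, and Afp at most 14, whereas Dlk1, Krt19 and Sox9 were at 3923, 973 and 187.4 normalized counts or more. The fibroblast markers Col1a1, Pdgfrb and Dcn were also present in every library, at 40446, 459.4 and 941.4 normalized counts or more. Others of the same list were low, with Col1a2 at 44.5 to 317.9 and Lum at most 40.1 normalized counts. Lum had 0 counts in 4 libraries. The leukocyte gene Ptprc and the endothelial gene Cdh5 had 0 counts in 14 of 16 libraries each.

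With sorafenib the 9 genes split by direction at both times. All 9 genes were called at 48 hours, where 54.6% of all genes tested were called, and all 9 at 7 days, where 56.8% were. At 48 hours 4 were higher (26.9% of all genes), namely Mfn1, Mfn2, Dnm1l and Mff, and 5 lower (27.7%), namely Fis1, Pink1, Bnip3l, Fundc1 and Bcl2l13. At 7 days 4 were higher (28.9%), namely Mfn2, Dnm1l, Mff and Pink1, and 5 lower (27.9%), namely Mfn1, Fis1, Bnip3l, Fundc1 and Bcl2l13. Mfn1 and Pink1 were thus called in opposite directions at the 2 times, and the other 7 in the same direction. The call of Mfn1 at 48 hours was not stable, as described below, so its change of direction rests on a weak call. The median absolute log2 fold change of the 9 genes was 0.62 at 48 hours and 0.49 at 7 days, against 0.50 over all genes tested at each time. The genes tested include those of few counts, down to 10 in total. Shares and medians were not compared at matched levels. For each of the 9 genes at each time the libraries of the treated and vehicle groups did not overlap, as was so for 48% of all genes at 48 hours and 56.8% at 7 days, and an exact permutation test (two-sided) between the 4 treated and 4 control libraries gave p = 0.0286, the smallest it can give.

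**Figure D1:**
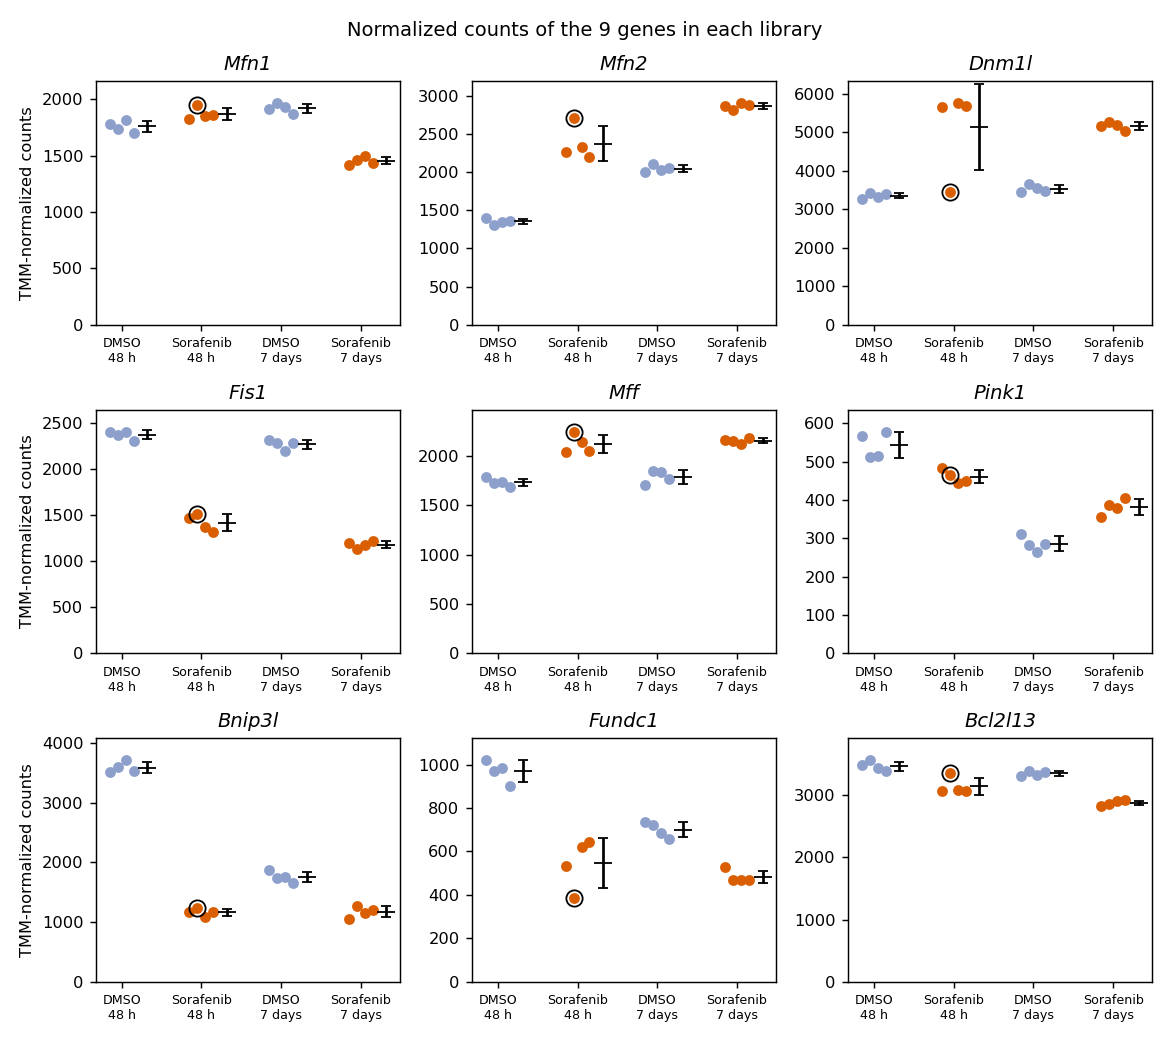
TMM-normalized counts of each gene (vertical axes from 0) in every library, by treatment and time (horizontal axis). Blue points are DMSO and orange points sorafenib libraries, the black bar is the mean ± SD of 4, and the circled point is replicate 2 of sorafenib at 48 hours, which was the lowest of its group for Dnm1l (3463) and Fundc1 (387.1).

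The mitofusins responded differently from each other. Mfn1 had 1781, 1734, 1820 and 1703 normalized counts in the DMSO libraries at 48 hours and 1830, 1949, 1853 and 1860 with sorafenib. The 2 sets lay close together without overlapping, and the log2 fold change was 0.09 ± 0.0342 (FDR 0.0324). This call was not stable: the FDR was 0.0562 with DESeq2, and the gene was not called when any 1 of the 8 libraries at 48 hours was left out (largest FDR 0.314). At 7 days Mfn1 was clearly lower with sorafenib, at 1422, 1463, 1495 and 1437 against 1913, 1966, 1934 and 1873 (log2 fold change -0.40 ± 0.0341, FDR 3.07e-09). The response at 7 days was below that at 48 hours by -0.49 ± 0.0483 (FDR 9.41e-08).

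Mfn2, whose product also tethers mitochondria to the endoplasmic reticulum, rose at both times. It went from 1396, 1304, 1352 and 1360 normalized counts in DMSO to 2259, 2711, 2330 and 2193 in sorafenib at 48 hours, every treated library lying above every control (log2 fold change 0.81 ± 0.05, FDR 2.32e-11). The highest of the treated libraries was replicate 2, and without it the change was 0.74. At 7 days it went from 2002, 2100, 2026 and 2056 to 2866, 2817, 2902 and 2876 (log2 fold change 0.49 ± 0.0484, FDR 3.41e-08). The rise was smaller at 7 days than at 48 hours by -0.32 ± 0.0695 on the log2 scale (FDR 9.05e-04). The DMSO level itself was higher at 7 days than at 48 hours (log2 fold change 0.60 ± 0.0497, FDR 4.08e-09), and the sorafenib level at 7 days was the highest of the 4 groups.

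Of the 3 division genes, Dnm1l and Mff rose and Fis1 fell. Dnm1l, encoding Drp1, was at 3279, 3430, 3317 and 3411 normalized counts in DMSO and at 5666, 3463, 5761 and 5693 in sorafenib at 48 hours. In 3 treated libraries it was thus far above the controls, and in replicate 2, the library that stood apart, it was just above the highest of them. The log2 fold change was 0.62 ± 0.101 (FDR 2.79e-05) and 0.76 (FDR 2.43e-29) without that library. At 7 days the values were 3442, 3663, 3551 and 3483 against 5181, 5272, 5194 and 5038, a log2 fold change of 0.55 ± 0.101 (FDR 9.69e-05). With all libraries the difference between the responses, -0.07 ± 0.143, was not called (FDR 0.759), whereas without replicate 2 the rise was smaller at 7 days by -0.22 (FDR 3.12e-06).

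Fis1 showed the largest fall at 7 days. Its 2405, 2368, 2403 and 2301 normalized counts in DMSO at 48 hours compared with 1469, 1515, 1366 and 1316 in sorafenib (log2 fold change -0.74 ± 0.042, FDR 5.56e-12). At 7 days 2309, 2280, 2191 and 2281 compared with 1196, 1128, 1174 and 1222 (log2 fold change -0.94 ± 0.042, FDR 1.2e-13), a level 1.92-fold lower. The DMSO levels at the 2 times overlapped. The fall was larger at 7 days by -0.20 ± 0.0592 (FDR 0.0124), a call lost in 4 of the alternatives run.

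Mff, the adaptor that recruits Drp1, rose at both times. It was at 1783, 1725, 1736 and 1687 normalized counts in DMSO and 2046, 2247, 2144 and 2053 in sorafenib at 48 hours, and at 1703, 1853, 1842 and 1766 and 2160, 2155, 2117 and 2178 at 7 days. The log2 fold changes were 0.29 ± 0.0377 (FDR 1.28e-06) and 0.26 ± 0.0372 (FDR 3.96e-06), and their difference of -0.03 ± 0.0529 was not called (FDR 0.729).

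**Figure D2:**
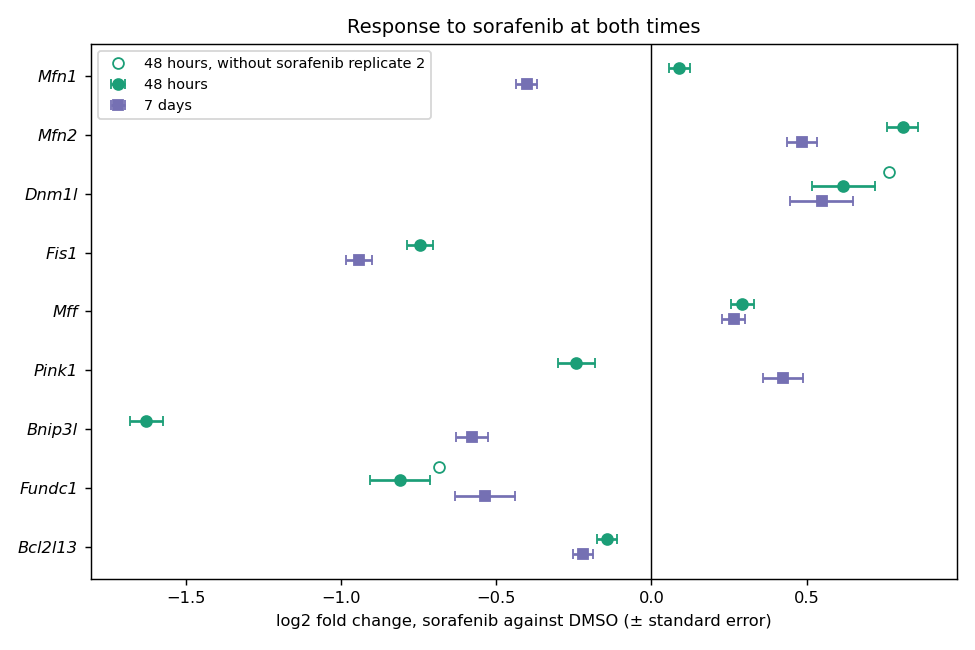
Log2 fold change of sorafenib against DMSO (horizontal axis) for each gene at 48 hours (green circles) and 7 days (purple squares), with the SE. Open circles give Dnm1l (0.76) and Fundc1 (-0.68) at 48 hours without the library that stood apart; Mfn1 and Pink1 lie on opposite sides of 0 at the 2 times.

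Pink1, the kinase that starts ubiquitin-dependent mitophagy, turned direction with time. At 48 hours it was at 567.9, 512.7, 515.6 and 578.1 normalized counts in DMSO and 484.1, 464.2, 444.5 and 449.7 in sorafenib (log2 fold change -0.24 ± 0.0602, FDR 0.00189). At 7 days it was at 311.4, 282.7, 263.3 and 283.8 in DMSO and 355.4, 386.6, 378.7 and 405.3 in sorafenib (log2 fold change 0.42 ± 0.0635, FDR 8.71e-06). The treated libraries were below the controls at the first time and above them at the second, and the responses differed by 0.67 ± 0.0875 (FDR 4.28e-06). The DMSO level fell between the times by 0.93 on the log2 scale (FDR 1.36e-10), more than the sorafenib level, which changed by -0.27 (FDR 0.00172), so the highest value at 7 days, 405.3, was below the lowest at 48 hours, 444.5.

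All 3 outer membrane receptors were lower with sorafenib at both times. Bnip3l, encoding NIX, the receptor that clears mitochondria from maturing red cells, fell most of the 9 genes at 48 hours. It was at 3519, 3602, 3716 and 3530 normalized counts in DMSO and at 1162, 1240, 1086 and 1170 in sorafenib (log2 fold change -1.63 ± 0.0529, FDR 8.44e-16), a level 3.09-fold lower. At 7 days it was at 1867, 1734, 1749 and 1658 in DMSO and 1051, 1271, 1160 and 1200 in sorafenib (log2 fold change -0.58 ± 0.0523, FDR 7.76e-09). The change of the treated level between the times was not called (0.01 ± 0.0541, FDR 0.884), while the DMSO level fell by 1.04 on the log2 scale (FDR 1.65e-12). The responses differed by 1.05 ± 0.074 (FDR 7.71e-10).

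Fundc1, a receptor known for mitophagy under low oxygen, was at 1020, 972.5, 984.2 and 900.4 normalized counts in DMSO and 534.6, 387.1, 618.6 and 643.9 in sorafenib at 48 hours. The lowest treated value again belonged to replicate 2, and all 4 treated libraries were below all controls. The log2 fold change was -0.81 ± 0.0973 (FDR 4.92e-07) and -0.68 (FDR 5.15e-15) without replicate 2. At 7 days 734.2, 722.1, 686.2 and 656.7 compared with 526.4, 469.4, 469.7 and 467.3 (log2 fold change -0.54 ± 0.0981, FDR 9.12e-05). The difference between the responses, 0.27 ± 0.138, was not called (FDR 0.135), and was 0.15 without replicate 2 (FDR 0.139).

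Bcl2l13, a BCL2-like receptor, changed least of the 3. It was at 3484, 3566, 3432 and 3398 normalized counts in DMSO and 3073, 3357, 3086 and 3065 in sorafenib at 48 hours, where the highest treated library came close to the lowest control (log2 fold change -0.14 ± 0.0327, FDR 9.16e-04). At 7 days 3309, 3384, 3330 and 3383 compared with 2831, 2856, 2903 and 2917 (log2 fold change -0.22 ± 0.0325, FDR 7.26e-06). The difference between the responses was not called (-0.08 ± 0.0461, FDR 0.209).

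In all, the responses at 7 days and 48 hours differed for 5 of the 9 genes, where 36.8% of all genes tested were called: 2, Pink1 and Bnip3l, had the higher change at 7 days (15.5% of all genes), and 3, Mfn1, Mfn2 and Fis1, the lower (21.3%). In DMSO alone, 5 of 9 differed between the times (49.4% of all genes), with 2, Mfn1 and Mfn2, higher at 7 days (23.9%) and 3, Pink1, Bnip3l and Fundc1, lower (25.5%); the libraries of the 2 times did not overlap for 7 of the 9 (50.8% of all genes). In sorafenib alone 5 of 9 also differed (39.7% of all genes), with 1, Mfn2, higher at 7 days (17.5%) and 4, Mfn1, Fis1, Pink1 and Bcl2l13, lower (22.3%); here 5 of the 9 did not overlap (35.8% of all genes). Without sorafenib 48 hours replicate 2, Dnm1l (from 0.00 to -0.14, FDR 1.49e-05) and Fundc1 (from -0.20 to -0.32, FDR 1.99e-05) were also called lower at 7 days in sorafenib, making 7 of 9, and Dnm1l was called between the times in DMSO (0.07, FDR 0.0132), making 6. These comparisons share their libraries with those of treatment, so the values are not separate evidence.

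Per kilobase of exon, the order of the levels changed with treatment. In DMSO at 48 hours Fis1 was highest at 761.1 ± 15.6 normalized counts per kilobase, followed by Bnip3l at 652.6 ± 16.5, Dnm1l at 461.1 ± 9.98, Bcl2l13 at 296.9 ± 6.28, Fundc1 at 217.3 ± 11.3 and Mff at 156.5 ± 3.58. Pink1, Mfn1 and Mfn2 came last at 134.3 ± 8.47, 130.6 ± 3.83 and 128.2 ± 3.59, and the libraries of Pink1 overlapped those of Mfn1, and those of Mfn1 overlapped those of Mfn2. With sorafenib at 48 hours Dnm1l was first at 706.3 ± 154.1, its libraries overlapping those of Fis1 at 455.1 ± 29.4, while Bnip3l was at 211.6 ± 11.4, overlapping Mfn2 at 224.8 ± 22.0 and Mff at 191.7 ± 8.51. Mff was above Mfn1 at 139.0 ± 3.89 without overlap, and Mfn1 overlapped Fundc1 at 122.4 ± 26.0, which overlapped Pink1 at 113.8 ± 4.38. The overlaps of Dnm1l with Fis1, Fundc1 with Pink1 and Bnip3l with Mff came from replicate 2. There Dnm1l was at 475.3, Fundc1 at 86.8 and Mff at 203.0. In the other 3 libraries Dnm1l was at 777.6 to 790.7, above every library of Fis1. Fundc1 was at 119.8 to 144.4 in them, just above the highest of Pink1 at 119.6. Bnip3l was at 197.3 or more in them, just above the highest of Mff at 193.7. In DMSO at 7 days Fis1 was again first, at 727.7 ± 16.6, ahead of Dnm1l at 485.1 ± 13.3 and Bnip3l at 318.3 ± 15.7, and Pink1 was last at 70.5 ± 4.89; Mff and Fundc1, at 161.8 ± 6.35 and 156.9 ± 7.90, overlapped. In sorafenib at 7 days Dnm1l was first at 709.8 ± 13.4 without overlap with Fis1 at 379.0 ± 12.8, Mfn2 was at 271.4 ± 3.39, the third place, Bnip3l at 212.6 ± 16.7 overlapped Mff at 194.4 ± 2.29, and Fundc1 at 108.3 ± 6.46 overlapped Mfn1 at 107.9 ± 2.37. The order depends in part on the length used. Per kilobase of the longest transcript Fis1 and Dnm1l kept the first place in the DMSO and sorafenib groups respectively, but Mff was above Fundc1 in DMSO at 48 hours (442.2 and 329.3), Pink1 was last there (144.9), and Mfn2 was in the fifth place in sorafenib at 7 days (383.4), behind Mff (549.4) and Bcl2l13 (400.7).

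**Figure D3:**
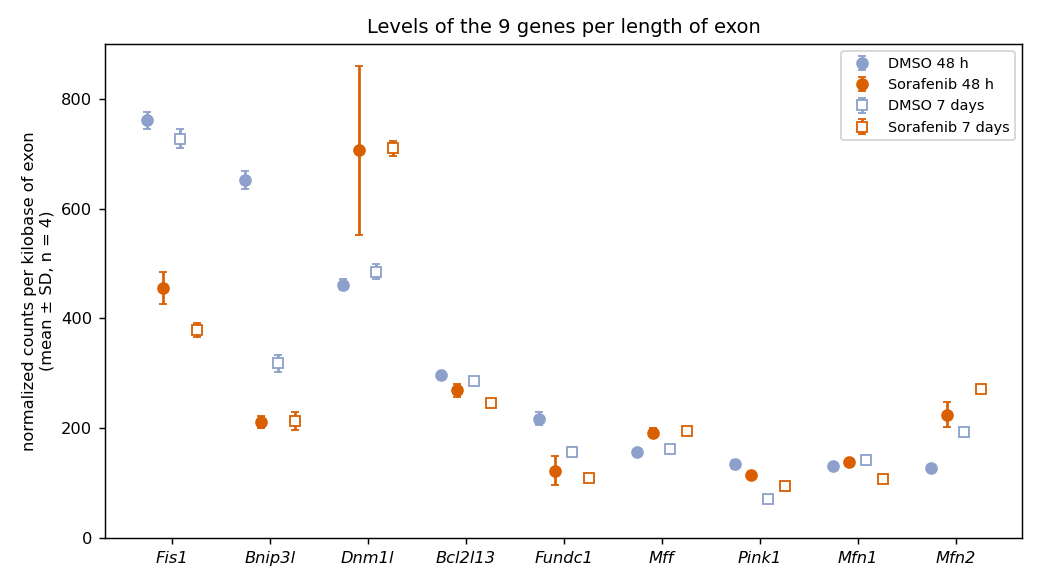
Normalized counts per kilobase of exon (vertical axis, from 0) for the 9 genes, ordered by their level in DMSO at 48 hours; points are means ± SD of 4 libraries, blue for DMSO, orange for sorafenib, filled at 48 hours and open at 7 days. Fis1 and Bnip3l lead in DMSO at 48 hours, and Dnm1l leads in both sorafenib groups.

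The other genes of the pathway were counted in 8 lists of related factors. In these lists, without the transcription factors, 61 genes had a row and 59 were tested; at 48 hours 28 were higher and 16 lower (74.6% called), and at 7 days 26 were higher and 20 lower (78.0%). Over all genes tested, 26.9% were higher and 27.7% lower at 48 hours and 28.9% and 27.9% at 7 days, the shares against which the counts of each list below are to be set. Their median absolute log2 fold change was 0.32 and 0.34, against 0.50 over all genes at each time, and the difference between the responses was called for 33 of 59 (55.9%, against 36.8% of all genes). All genes again include those of few counts, and matched levels were not compared.

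The list of 8 other fusion genes holds inner membrane fusion factors, their proteases and outer membrane factors, so its counts give no direction of fusion. Among them, 3 were higher and 3 lower at 48 hours, and 2 higher and 4 lower at 7 days. Opa1, the inner membrane fusion GTPase, changed by 0.32 ± 0.0871 at 48 hours (FDR 0.00398; 0.45 without replicate 2, in whose affected stretch it lies), and its 0.17 ± 0.0865 at 7 days was not called (FDR 0.112), though the same fit without that library called it (FDR 1.22e-07). Oma1, the protease that cleaves OPA1 under stress, was at -0.07 at 48 hours (FDR 0.431) and -0.37 at 7 days (FDR 1.66e-04). Chchd3, a cristae-organizing protein, rose by 0.59 and 0.26, and Msto1 fell by 0.37 and 0.51 on the log2 scale.

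Of 12 other division genes, 8 were higher and 1 lower at 48 hours, and 8 were higher and 2 lower at 7 days. Mtfr1 rose from 1692 ± 53.4 to 3157 ± 117.5 normalized counts at 48 hours (log2 fold change 0.90) and from 2150 ± 32.5 to 2817 ± 48.5 at 7 days (0.39). Dnm2, a dynamin of membrane scission, rose by 0.68 and 0.40, and Mtfp1, an inner membrane protein, was at -0.17 at 48 hours (FDR 0.223) and fell by 0.72 at 7 days. Mief1, a Drp1 adaptor, was not called at either time with all libraries (-0.19, FDR 0.0563, and -0.15, FDR 0.117); without replicate 2 it was at -0.07 at 48 hours (FDR 0.0841) and its -0.15 at 7 days was called (FDR 6.77e-05). The actin nucleator Spire1 rose by 0.22 and 0.45 (0.34 at 48 hours without replicate 2). In the transport list of 6 genes, the kinesin heavy chain Kif5b rose by 1.07 (1.22 without replicate 2) and 0.41, the Miro GTPase Rhot2 fell by 0.65 (0.52 without that library, on the log2 scale) and 0.67, and Armcx3 was at -0.20 (FDR 0.0957; -0.06 without that library, FDR 0.27) and fell by 0.67.

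Of 11 other tested genes of PINK1 signalling, 2 were higher and 3 lower at 48 hours, and 2 higher and 4 lower at 7 days. The deubiquitinase Usp8 rose by 0.32 and 0.40, Usp35 fell by 0.69 on the log2 scale at 48 hours and was at -0.13 at 7 days (FDR 0.2), and Tomm20, a receptor of the import channel, was at -0.06 (FDR 0.21) and fell by 0.47. Usp15 was at -0.01 (FDR 0.83) and fell by 0.58.

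The soluble receptors Sqstm1 and Optn, which bind ubiquitinated cargo, rose at both times. Of 5 genes in their list, 4 were higher and 1 lower at 48 hours and 4 were higher at 7 days. Sqstm1, encoding p62, was at 4649, 4511, 4667 and 4640 normalized counts in DMSO and at 13609, 15106, 14119 and 13383 in sorafenib at 48 hours, and at 5093, 5451, 5430 and 5287 against 22817, 22736, 22104 and 22439 at 7 days (log2 fold changes 1.61 and 2.08, FDR 2.22e-18 and 5.13e-20). The treated libraries at 7 days were above every other library. Optn, encoding optineurin, rose from 62.6 ± 18.0 to 355.3 ± 26.0 and from 77.1 ± 8.73 to 591.8 ± 42.9 normalized counts (log2 fold changes 2.51 and 2.95).

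Among the membrane receptors and regulators other than the members, Chdh was not tested, with 1 count in all libraries. The rest split evenly, 5 higher and 5 lower of 12 tested at 48 hours and 6 and 6 at 7 days. Bnip3, the closest relative of Bnip3l, was at 2516, 2720, 2814 and 2872 normalized counts in DMSO at 48 hours and at 273.6, 291.8, 317.9 and 270.3 in sorafenib, with no overlap (log2 fold change -3.24 ± 0.112, FDR 2.33e-15). At 7 days it was at 271.4, 159.3, 170.9 and 160.5 in DMSO and 234.0, 320.8, 285.1 and 297.1 in sorafenib, where 1 control library, replicate 1, reached into the treated range (log2 fold change 0.60 ± 0.131, FDR 5.42e-04). The DMSO level fell between the times by 3.86 on the log2 scale, and the change of the treated level was not called (-0.02, FDR 0.934). Phb2, the inner membrane receptor prohibitin 2, was at -0.00 at 48 hours (FDR 0.955) and fell by 0.34 at 7 days (FDR 2.14e-08). Pptc7, a phosphatase that restrains BNIP3 and NIX, rose by 0.90 and 0.56, Nipsnap1 fell by 0.85 and 1.18, and Src rose by 0.51 and 0.76 on the log2 scale.

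**Figure D4:**
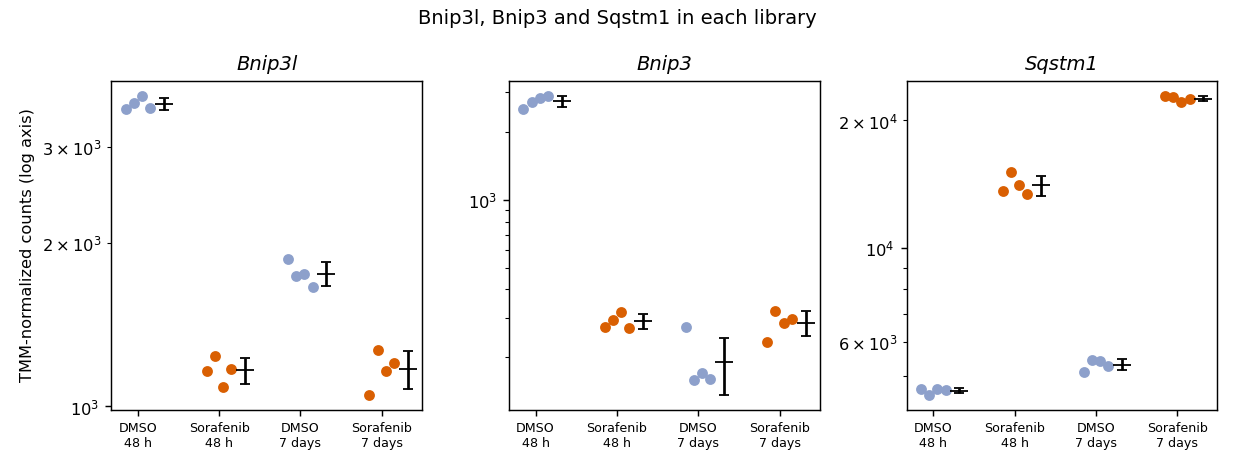
TMM-normalized counts (log axes) of Bnip3l, Bnip3 and Sqstm1 in every library, blue for DMSO and orange for sorafenib, with the mean ± SD of 4 in black. Bnip3 is high in the 4 DMSO libraries at 48 hours (2516 to 2872) and low in the other 3 groups (159.3 to 320.8), while Sqstm1 is at 13383 or more in the 8 sorafenib libraries.

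Of the 5 LC3 and GABARAP genes, whose products decorate the autophagosome membrane, 2 were higher and 2 lower at 48 hours, and 2 higher and 1 lower at 7 days. Gabarapl1 fell by 1.15 and 1.34 on the log2 scale, Map1lc3a rose by 0.22 and 0.88, and Map1lc3b fell by 0.45 at 48 hours and was at -0.01 at 7 days (FDR 0.934). Of 10 transcription factors that act on mitochondrial or autophagy genes, 3 were higher and 6 lower at 48 hours, and 1 higher and 6 lower at 7 days. Atf4, the effector of the integrated stress response, rose by 1.60 (1.72 without replicate 2) and 0.97, Foxo3 fell by 0.94 and 0.73, and Tfeb, the lysosomal regulator, fell by 0.46 (0.38 without replicate 2) and 1.38 on the log2 scale.

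**Figure D5:**
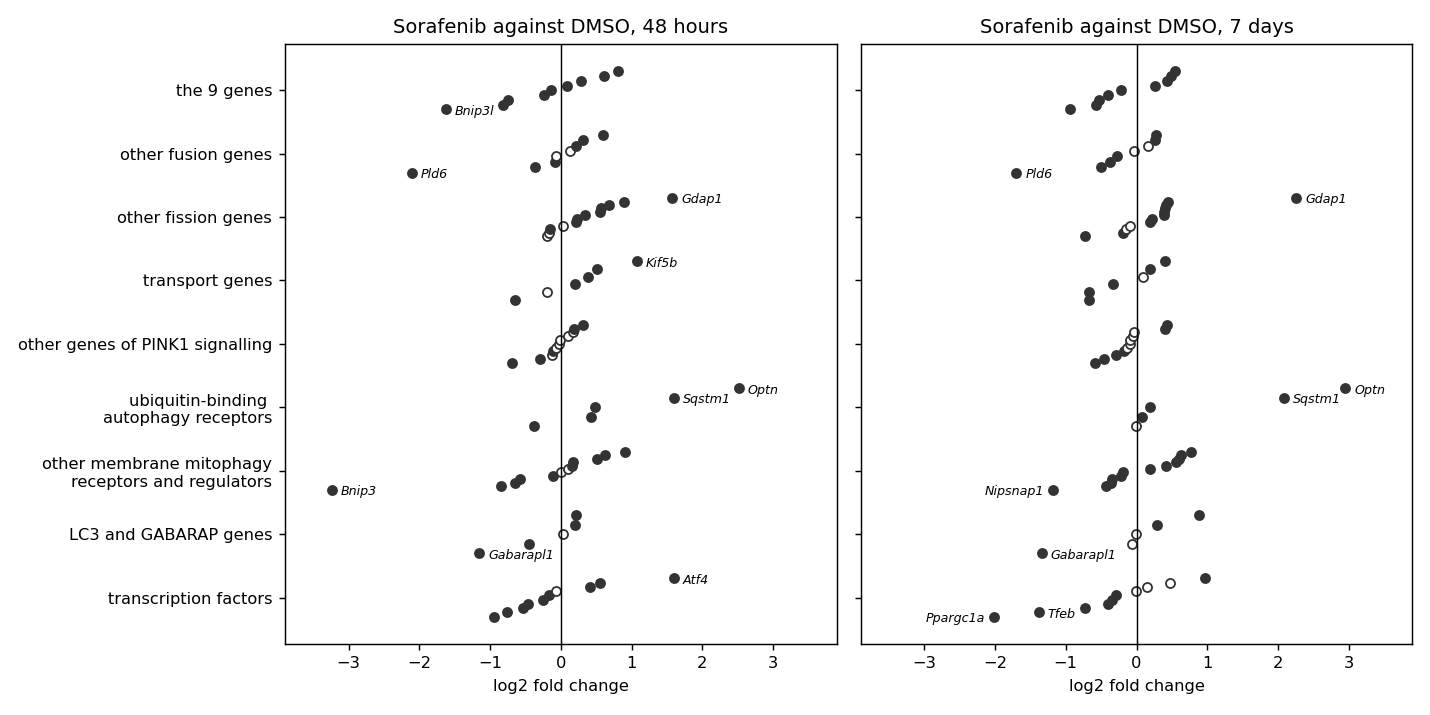
Log2 fold change of sorafenib against DMSO (horizontal axes) at 48 hours and 7 days, 1 point per tested gene and 1 row per list; filled points passed the FDR threshold and genes beyond 1 in either direction are named. Bnip3 (-3.24) lies lowest at 48 hours and Optn (2.95) highest at 7 days; Pld6 and Gdap1, named after their values were seen, had few counts, with group means of at most 19.9 and 17.2 normalized counts.

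The genes whose profile over the 4 groups lay closest to that of Bnip3l, among 10645 genes, were Ano1, Pim2, Kdm3a, Myzap and Nudt10, with a root-mean-square difference of centred log2 means between 0.0582 and 0.112. For Fis1 they were Hmgb1, 2010204K13Rik, Slc48a1, Ptma and Pim3, between 0.0237 and 0.0378. The profiles rest on 4 group means, and the likeness is a description.

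Markers of hepatoblasts and of other cell types moved with treatment, and their part in the results above was not tested. The summed level of the 10 hepatoblast markers was between 34563 and 35983 normalized counts in DMSO and between 12107 and 13931 in sorafenib at 48 hours, and between 18281 and 19975 and between 6022 and 6304 at 7 days. This sum is largely 1 gene, Dlk1, which made up 63.9% to 91.8% of it in each library. Of the 7 tested, 2 were higher and 4 lower at 48 hours and 1 was higher and 6 were lower at 7 days. The 5 fibroblast markers summed to between 44353 and 46978 in DMSO and between 82029 and 88861 in sorafenib at 48 hours, and to between 46347 and 48723 and between 53044 and 54991 at 7 days, with 3 higher and 2 lower at the first time and 2 higher and 3 lower at the second. Col1a1 made up 87.9% to 97.2% of it, and Dcn, by contrast, fell by 2.30 on the log2 scale at 7 days. The 5 macrophage markers summed to at most 180.9 and the 5 endothelial markers to at most 236.3 in any library; of these, 0 higher and 1 lower of 3 tested, and 2 higher and 1 lower of 4 tested, were called at each time. The endothelial sum was largely Kdr in sorafenib at 7 days, where this gene was at 183.3 to 219.3 normalized counts. Adgre1 had 0 counts in all 16 libraries. In such bulk libraries fewer cells of a type and less RNA per cell cannot be told apart.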

How the data were processed

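mRNA of p53-/-; Myc hepatoblasts was sequenced in 16 libraries with a stranded mRNA kit. The authors aligned the reads to GRCm39 with STAR 2.7.1a, and the submitters' processing notes also name featureCounts 2.0.6 and DESeq2 1.40.2; the annotation and the strand setting are not given in the sources used here. The deposited values are raw whole-number counts of 40840 genes per library, not normalized. Groups and replicates were taken from the labels.

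Genes with at least 10 counts in total were kept (20444; 20396 removed) and tested in R 4.3.3 with edgeR 4.0.16 (quasi-likelihood test, TMM, 1 fit of all 16 libraries, no block, Benjamini-Hochberg FDR under 0.05). The scripts were tested on simulated data. Alternatives were DESeq2 1.42.0, limma 3.58.1 (voom), other scalings, filters and sample sets, a fold threshold, a replicate block and each library left out. The members and lists were chosen with earlier results of these data known. Named genes were the members, Bnip3, Opa1, Phb2, Oma1, Mief1, Sqstm1 and Optn, the 2 largest changes of each other list at each time averaging 50 or more normalized counts, Trp53 and Myc, and the 5 nearest profiles to the member of largest change at each time averaging 100 or more. No 2 libraries of a group agreed within sampling noise (lowest chi-square per gene 1.58). Same-numbered libraries were checked for pairing and showed no clear pairing. Promoters came from RefSeq (GRCm38.p6). Mitochondrially encoded mRNAs were not analysed here, and some genes are not reported here.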

Additional observations from a re-analysis of the deposited data

Results flagged for a closer look

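In 36 tests of a gene within a group of 4 libraries, 3 had 1 library lying far from the other 3 by Dixon's test, where chance gives about 1 in 20. Dnm1l was lowest in sorafenib 48 hours replicate 2, at 3463 normalized counts, the library whose counts step down on chromosome 14. Bcl2l13, which lies outside the lower stretch, was highest in the same library, at 3357, a ratio of 1.09 to the mean of the other 3. The remaining members outside the stretch were also above that mean in this library, at ratios from 1.01 (Pink1) to 1.20 (Mfn2). Fundc1 was highest in sorafenib 7 days replicate 1, at 526.4.

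The response to sorafenib differed between 7 days and 48 hours by the interaction of treatment and time (edgeR, FDR under 0.05). The log2 difference, 7 days minus 48 hours, was Mfn1 (-0.49), Mfn2 (-0.32), Fis1 (-0.20), Pink1 (0.67) and Bnip3l (1.05) among the members. Among the other named genes it was negative for Phb2 (-0.34), Oma1 (-0.30), Chchd3 (-0.33), Mtfr1 (-0.51), Dnm2 (-0.28), Mtfp1 (-0.55), Kif5b (-0.67), Armcx3 (-0.47), Usp15 (-0.57), Tomm20 (-0.40), Pptc7 (-0.34), Nipsnap1 (-0.33), Gabarapl1 (-0.19), Atf4 (-0.63) and Tfeb (-0.92). It was positive for Bnip3 (3.84), Sqstm1 (0.48), Usp35 (0.56), Src (0.25), Map1lc3b (0.45), Map1lc3a (0.67) and Foxo3 (0.21). Kif5b, Armcx3, Atf4 and Tfeb lie in the stretch that was low in sorafenib 48 hours replicate 2, and their values here include that library. Oma1 lost its call in 8 fits with 1 library left out (largest FDR 0.0906) and with library totals (FDR 0.145). A difference of this kind holds the vehicle groups of both times. Of the members called, these differed from each other by more than the sorafenib groups did for Bnip3l, Pink1 and Mfn2. By group means the same held for Bnip3, Phb2, Chchd3, Mtfr1, Dnm2, Kif5b, Usp15, Tomm20, Pptc7, Atf4, Usp35, Src, Map1lc3b, Map1lc3a and Foxo3. The sorafenib groups differed by more for Mfn1 and Fis1, and for Oma1, Mtfp1, Armcx3, Nipsnap1, Gabarapl1, Tfeb and Sqstm1.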

How the results depend on the processing

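Of 1071 alternative values for single members, 1024 kept their direction and side of the threshold, 21 lost the call, 10 gained it and 16 changed sign, none of those called in the main test. Requiring a 1.5-fold change left 5 members called at 48 hours, 1 at 7 days, 2 for the difference, 3 for time in DMSO and 0 for time in sorafenib; it left 16, 13 and 4 pathway genes for the first 3 of these, and 5854, 6281, 3417, 4152 and 2939 genes in all. Member counts with 1 library left out ran from 8 to 9 (48 hours), 9 to 9 (7 days), 4 to 6 (difference), 5 to 6 (DMSO) and 5 to 7 (sorafenib), and pathway counts from 41 to 47, 44 to 50 and 30 to 42. Mfn1 at 48 hours lost its call in 15 alternatives, among them every library of that time left out. The ratio of the highest to the lowest level per kilobase in DMSO at 48 hours was 5.94, and 8.03 with the longest transcript as the length, which also changed the order of the levels.

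No clear pairing by replicate number was seen. Correlations of same-numbered deviations were -0.0486 to 0.127, with 2 of 8 above 0.1, and those of different numbers -0.166 to 0.115. A weak pairing is not excluded by this. With the replicate block 8 members were called at 48 hours, 9 at 7 days and 5 in each other comparison, Mfn1 at 48 hours being lost (FDR 0.0692).

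Signs changed only for values not called in the main test, and the cause was not tested. The difference of responses became positive with library totals for Dnm1l (0.0279), Mff (0.0652), Bcl2l13 (0.0152) and Rhot2 (0.0766), with at least 10 counts in every sample for Mff (0.0376) and Rhot2 (0.0462), and with DESeq2 for Rhot2 (0.00127); with voom it was -0.0534 for Mief1. With 1 library left out it ran from -0.216 to 0.0147 for Dnm1l, -0.0514 to 0.0123 for Mff, -0.0793 to 0.128 for Mief1 and -0.146 to 0.0736 for Rhot2. For time in sorafenib, Dnm1l was -0.108 with voom, -0.00124 with genes of at least 1 count in any sample, and -0.142 to 0.082 with a library left out, where Bnip3l ran from -0.0307 to 0.0586. Mff for time in DMSO was -0.00979 with library totals. With at least 1 count, Phb2 (0.0354) and Usp15 (0.0281) turned positive at 48 hours. Map1lc3b at 7 days was 0.0175 with library totals, 0.0179 with at least 1 count, 0.0207 with at least 10 in every sample, and -0.0203 to 0.0164 with a library left out. The lowest value for Dnm1l came without sorafenib 48 hours replicate 2, and the difference was then called. The share of counts on mitochondrially encoded mRNAs was not run.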
